A study of Mus musculus with 12 samples.

Results

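A set of 37 genes of the p53 pathway and of apoptosis was followed in mouse TRAMP-C prostate tumour cells exposed to low oxygen. The set was chosen by gene symbol: p53 itself (Trp53) and its regulators, genes that p53 is known to switch on, the death receptors, the BCL2 family and the caspase machinery. All 75 array probes that the platform annotation names for these genes were taken, 59 of them were detected, and they covered 31 of the 37 genes. These 31 are among 9609 genes with a detected probe in the series. Trp53, Bax, Btg2 and Perp had no probe named in the annotation and are not analysed here. Mdm4, which encodes a partner of MDM2 that restrains p53, had 3 probes, and Pmaip1, which encodes the BH3-only protein NOXA, had 1, and neither gene had a probe detected on more than 1 array.

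The RNA came from TRAMP-C, a line taken from the prostate tumour of a male C57BL6 TRAMP mouse and called wild-type in the labels. The cells were nucleofected with empty pcDNA vector (control), with FOXA2, a forkhead transcription factor, with HIF-1a, the subunit of hypoxia-inducible factor that oxygen destabilizes, or with FOXA2 and HIF-1a together (FOXA2+HIF-1a). Cells of each transfection were kept 48 h later for 12 h in normoxia or in 1% oxygen (hypoxia), which made 8 groups. Each normoxia group had 1 array, numbered replicate 1, and each hypoxia group had 2, numbered replicates 1 and 2. Every group shares the TRAMP background: these mice carry the SV40 T antigen, a viral protein that binds p53, under the prostate-specific probasin promoter. Whether the cultured cells made T antigen was not measured here. The labels name no clone and do not say whether replicates 1 and 2 were grown apart, and the p-values therefore cover only array-to-array spread, which may be technical. Each RNA sample pooled many cells, so a change of RNA per cell and a change in the share of cells that carry it cannot be told apart.

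p53 is a transcription factor that is kept low by MDM2, the ubiquitin ligase that marks it for breakdown, and MDM2 is itself a p53 target. When p53 is active it turns on genes for cell cycle arrest, DNA repair and metabolism and genes for cell death. In the mitochondrial route to apoptosis, BH3-only proteins such as BIM and PUMA release BAX and BAK from guardians such as BCL2, cytochrome c leaves the mitochondria, and APAF1 then assembles the platform on which caspase-9 is activated. In the other route, death receptors such as FAS activate caspase-8, and BID links the routes. Oxygen acts on many genes through hypoxia-inducible factor, which binds a short core motif in DNA.

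The promoters of 4 members are shown because these genes had the smallest p-values for the change with oxygen in their directions, 2 that rose (Bcl2l11 and Apaf1) and 2 that fell (Bid and Aen). Each is 300 bases from RefSeq for build GRCm38.p6, from 250 bases before the annotated start to 50 after it, read 5′ to 3′ on the gene's strand. Bcl2l11 lies at chr2:128125788-128126087 on the + strand, Apaf1 at chr10:91082694-91082993 on the - strand, Bid at chr6:120916775-120917074 on the - strand, and Aen at chr7:78895677-78895976 on the + strand. For Bcl2l11 and Aen the table lists 2 windows and the first is shown. Capitals mark the core motif of hypoxia-inducible factor, ACGTG or GCGTG, searched on both strands, so that CACGT and CACGC mark it on the other strand; the motif overlaps the E-box CACGTG.
Bcl2l11: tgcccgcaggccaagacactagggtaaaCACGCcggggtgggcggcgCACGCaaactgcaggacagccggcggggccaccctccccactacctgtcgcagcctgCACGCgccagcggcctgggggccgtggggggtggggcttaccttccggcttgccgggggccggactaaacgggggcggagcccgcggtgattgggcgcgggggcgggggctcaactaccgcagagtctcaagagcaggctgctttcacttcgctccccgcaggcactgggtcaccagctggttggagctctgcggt
Apaf1: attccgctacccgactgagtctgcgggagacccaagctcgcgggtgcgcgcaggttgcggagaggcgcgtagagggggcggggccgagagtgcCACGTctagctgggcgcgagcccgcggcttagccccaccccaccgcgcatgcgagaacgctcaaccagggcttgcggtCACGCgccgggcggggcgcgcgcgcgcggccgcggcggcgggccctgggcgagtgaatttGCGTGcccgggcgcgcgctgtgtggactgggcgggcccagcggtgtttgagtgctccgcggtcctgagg
Bid: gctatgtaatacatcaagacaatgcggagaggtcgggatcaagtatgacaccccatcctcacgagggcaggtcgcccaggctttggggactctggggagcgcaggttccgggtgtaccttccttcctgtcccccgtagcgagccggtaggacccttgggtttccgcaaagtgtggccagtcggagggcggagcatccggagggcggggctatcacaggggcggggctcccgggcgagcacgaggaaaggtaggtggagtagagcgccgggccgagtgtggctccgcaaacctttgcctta
Aen: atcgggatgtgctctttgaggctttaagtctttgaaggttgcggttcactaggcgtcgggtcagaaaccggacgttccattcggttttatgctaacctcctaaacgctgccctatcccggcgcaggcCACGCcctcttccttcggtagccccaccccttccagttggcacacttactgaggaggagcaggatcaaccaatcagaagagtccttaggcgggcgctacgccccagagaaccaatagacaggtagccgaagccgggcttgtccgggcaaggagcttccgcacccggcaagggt
In the printed windows, core motifs began 222, 203 and 146 bases before the start in Bcl2l11, 157, 79 and 19 bases before it in Apaf1 and 123 bases before it in Aen, and Bid had none. The second window, not shown, held 0 core motifs for Bcl2l11 and 2 for Aen. Over all 32851 promoter windows of the table, 43.8% held a core motif, against 65.1% of the 43 windows of the 31 member genes that the promoter table lists. These are not the 31 detected members: Trp53, Bax, Btg2 and Mdm4 are listed, and Trp53inp1, Zmat3, Rrm2b and Tnfrsf10b are not. The motif was in 7 of 9 windows (77.8%) of members called higher, 5 of 7 (71.4%) of those called lower and 13 of 22 (59.1%) of those not called. Some genes have several windows, and by gene the motif was in 5 of 6, 4 of 6 and 10 of 15. The windows of all promoters were not limited to tested genes or matched for base composition. The p53 decamer, the unit that p53 binds in pairs, was in 8.36% of all windows and in 23.3% of the members' windows. It was in 1 of 9 windows of members called higher, 3 of 7 of those called lower and 4 of 22 of those not called. By gene that was 1 of 6, 2 of 6 and 4 of 15. Among the 4 printed promoters the decamer was found in Aen, 11 bases after the start. A match is a description of the letters, and no binding was measured here.

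On the arrays as a whole, mean intensity was 298.5 to 558.5, with the highest in the FOXA2+HIF-1a hypoxia replicate 1 array, and 15322 to 17182 of 45281 probes were detected. Foxa2 log2 intensity was 9.27 to 10.98 on the 6 arrays transfected with it and 6.14 to 7.07 on the other 6, and Hif1a was 11.98 to 13.18 against 9.06 to 9.64. Of 9 prostate epithelial markers 3 were measured (Krt8, Krt14 and Cdh1), of 5 mesenchymal markers all 5 were, and of 7 immune and 4 endothelial markers 0 were. Epcam, Krt18 and Krt5 were among those with no detected probe. Of the 8 measured markers Vim, at log2 12.29 to 13.86, was called higher in hypoxia (0.60; adjusted p = 0.0401), and the other 7 were not called, with changes from -0.28 to 0.32; their part in the members' changes was not tested. The hypoxia replicates differed from each other: in hypoxia, 8.44% of all genes were called higher and 8.01% lower in replicate 2 than in replicate 1. Because all normoxia arrays are replicate 1, the fit that carries the replicate number as a block estimates the oxygen change from replicate 1 hypoxia arrays against normoxia arrays.

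Hypoxia moved members in both directions. A rise was called for 7 of the 31 members, Bcl2l11, Apaf1, Trp53inp1, Phlda3, Bbc3, Mdm2 and Casp9, and a fall for 8, Plk2, Aen, Bid, Tigar, Rrm2b, Zmat3, Cycs and Ei24, while 16 were not called. Calls are at an adjusted p under 0.05 in limma, with p-values of the 9609 genes adjusted by Benjamini-Hochberg, 8 hypoxia against 4 normoxia arrays with transfection as a term. The shares were 22.6% higher and 25.8% lower, beside 14.4% and 15.9% of all genes tested. Aen and Tigar, among the falls, passed the detection filter through normoxia, where they are high. The median change of the members was log2 -0.03, and that of all genes was -0.02. With the replicate block, 4 members were called higher (Bcl2l11, Apaf1, Mdm2 and Bbc3), beside 13.9% of all genes, and 9 lower, beside 16.1%: Trp53inp1, Phlda3, Casp9 and Cycs were no longer called, and Fas and Tnfrsf10b were called lower. On the brightest probe of each gene, the hypoxia and normoxia arrays did not overlap for 12 of the 31 members, Aen and Tigar among them, beside 24.5% of all genes. With 1 array left out, 4 to 8 members were called higher and 5 to 9 lower. The lowest counts came without a normoxia array. They were 4 higher without the control, FOXA2 or HIF-1a array and 5 lower without the control, HIF-1a or FOXA2+HIF-1a array. The share of all genes called with 1 array left out was not counted.

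**Figure D1:**
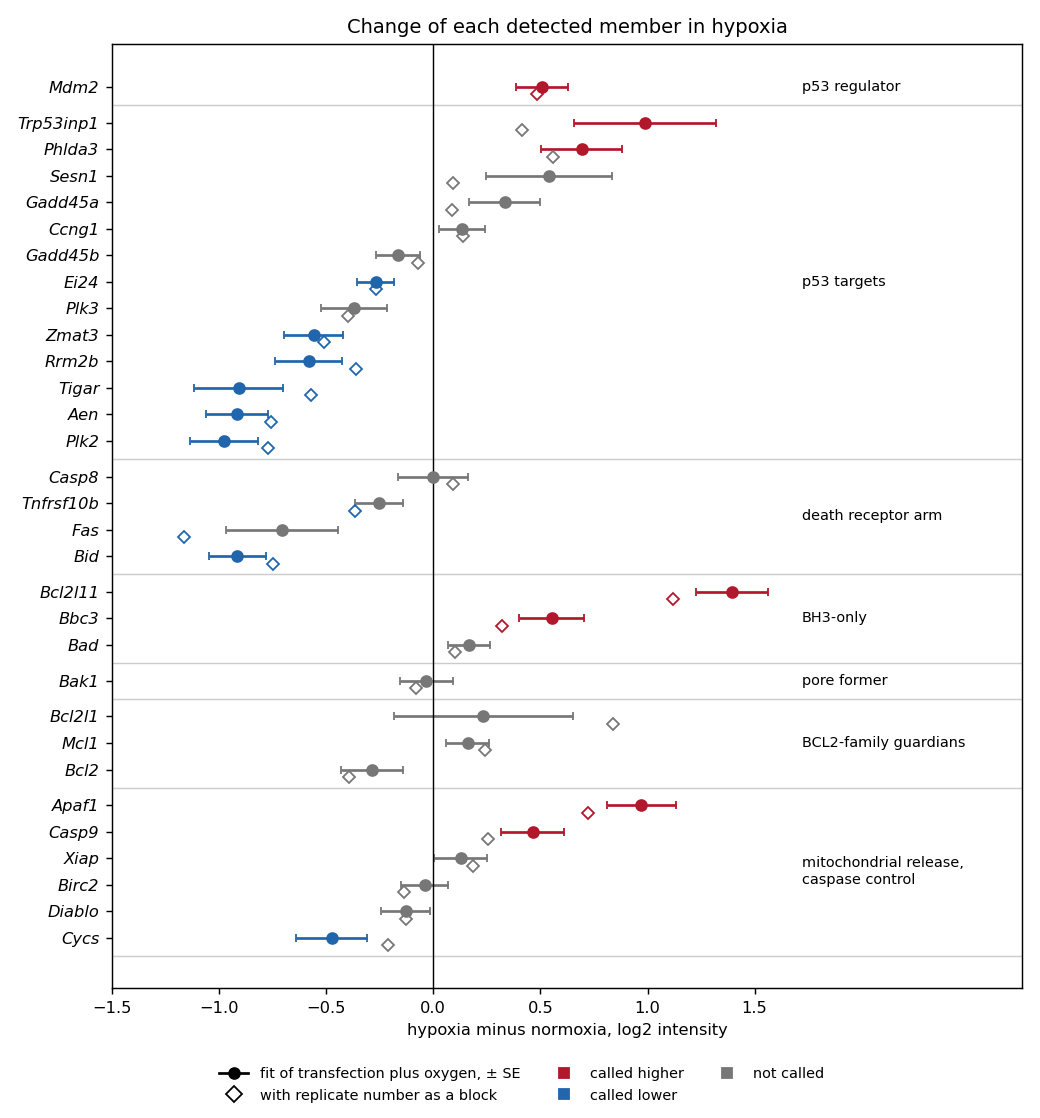
Hypoxia minus normoxia in log2 intensity for the 31 detected members, grouped by role. Filled circles with bars are the change ± SE from the fit of transfection plus oxygen, open diamonds the change in the blocked fit, and colour gives the call. Among the circles Bcl2l11 lies farthest to the right at 1.39 and Plk2 farthest to the left at -0.98. Among the diamonds Bcl2l11 lies farthest to the right at 1.12 and Fas farthest to the left at -1.16.

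Mdm2, the ubiquitin ligase that holds p53 down, was the only measured member among p53 and its direct regulators, and it rose. Its log2 intensity in normoxia was 10.005 in control, 10.06 in FOXA2, 10.12 in HIF-1a and 10.10 in FOXA2+HIF-1a cells. In hypoxia it was 10.46, 10.68, 10.70 and 10.39 in replicate 1 and 10.36, 10.42, 10.59 and 11.03 in replicate 2, in the same order of transfections, which is kept below. All 8 hypoxia arrays lay above all 4 normoxia arrays. The change was 0.51 ± 0.12 (SE; 1.42-fold; adjusted p = 0.00957 in limma), and both hypoxia replicates gave nearly the same value, 0.49 for replicate 1 and 0.53 for replicate 2 against the normoxia mean. A second Mdm2 probe rose by 0.66 and the third changed by 0.27, which was not called.

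Of 13 measured p53 targets not placed in another role group, 2 rose, 6 fell and 5 were not called, and the median change was log2 -0.27. Those are 15.4% higher and 46.2% lower, beside 14.4% and 15.9% of all genes. The falls include Aen and Tigar, whose probes passed the detection filter through normoxia, where they are high. The lower share therefore rests in part on that filter. With the replicate block 0 were higher and 6 lower, beside 13.9% and 16.1% of all genes. Mdm2 and Bbc3, also p53 targets, were counted in other role groups, so these counts depend on the grouping. Plk2, a polo-like kinase, was at 11.50, 11.29, 11.34 and 11.24 in normoxia. In hypoxia it was at 10.67, 10.74, 10.25 and 10.62 in replicate 1 and at 10.52, 10.12, 10.22 and 9.80 in replicate 2. Every hypoxia array was below every normoxia array, and the change was -0.98 ± 0.16 (1.97-fold lower; adjusted p = 0.00115).

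Aen, which encodes a p53-induced nuclease of the apoptotic nucleus, and Tigar, which encodes a phosphatase that lowers fructose-2,6-bisphosphate and slows glycolysis, were dim genes that fell. Aen was at 5.74, 5.76, 5.65 and 5.49 in normoxia, at 4.75, 4.87, 4.70 and 5.28 in replicate 1 hypoxia and at 4.46, 4.53, 4.65 and 4.70 in replicate 2. Tigar was at 5.93, 6.001, 5.64 and 5.52 in normoxia, at 5.09, 5.23, 5.09 and 5.40 in replicate 1 hypoxia and at 4.68, 4.53, 4.51 and 4.39 in replicate 2. Both genes had their probe detected on all 4 normoxia arrays and on only 1 of 8 hypoxia arrays, and in both the highest hypoxia array was FOXA2+HIF-1a replicate 1, still below every normoxia array. Both probes therefore passed the detection filter through normoxia, where they are high, and the sizes rest on hypoxia signals that were mostly not above background. The fit gave -0.92 ± 0.14 for Aen (adjusted p = 0.000924) and -0.91 ± 0.21 for Tigar (adjusted p = 0.00758). With a background offset of 50 the changes were -0.47 and -0.48, and in the authors' processed table -0.48 and -0.49, all called lower. The replicates did not give the same size for Tigar, with -0.57 in replicate 1 and -1.25 in replicate 2 against the normoxia mean, a difference that was called (adjusted p = 0.0121).

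Zmat3, which encodes an RNA-binding zinc finger protein, Rrm2b, which encodes the p53-induced subunit of ribonucleotide reductase that supplies deoxynucleotides for repair, and Ei24, which encodes a membrane protein of the endoplasmic reticulum, fell less. Zmat3 was at 8.63, 8.61, 8.42 and 8.46 in normoxia, at 8.16, 8.09, 7.42 and 8.41 in replicate 1 hypoxia and at 8.08, 8.09, 7.83 and 7.70 in replicate 2. Rrm2b was at 8.85, 8.85, 8.93 and 8.79 in normoxia, at 8.38, 8.62, 8.86 and 8.12 in replicate 1 hypoxia and at 8.12, 8.27, 8.13 and 7.69 in replicate 2. The HIF-1a replicate 1 hypoxia array made the Rrm2b ranges overlap, and the Zmat3 ranges nearly touched but did not overlap. Ei24 ran from 9.91 to 10.11 in normoxia and from 9.63 to 9.85 in hypoxia, with no overlap. The changes were -0.56 ± 0.14 for Zmat3 (adjusted p = 0.0114), -0.58 ± 0.16 for Rrm2b (adjusted p = 0.0162) and -0.27 ± 0.09 for Ei24 (adjusted p = 0.0345). Zmat3 was not called without the HIF-1a normoxia array (adjusted p = 0.0667), nor Rrm2b without the control or FOXA2+HIF-1a normoxia array (0.0585 and 0.0862). Rrm2b changed by -0.36 with the replicate block (adjusted p = 0.036) and by -0.26 on slide 1 alone (adjusted p = 0.165), and it was not called from replicate 1 hypoxia arrays only (adjusted p = 0.0589). Ei24 was not called when any one of 7 arrays was left out (adjusted p from 0.0533 to 0.157), namely the 4 normoxia arrays, both FOXA2 hypoxia arrays and the control replicate 2 hypoxia array, nor on slide 1 alone (adjusted p = 0.116). The other Ei24 probe changed by -0.23 and was not called in the test of every detected probe (adjusted p = 0.177).

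Trp53inp1, a p53 target whose product takes part in cell death and autophagy, and Phlda3, which encodes a pleckstrin-homology protein that restrains AKT, rose. Trp53inp1 was at 5.62, 5.69, 5.90 and 5.80 in normoxia, at 5.89, 6.47, 6.41 and 5.89 in replicate 1 hypoxia and at 7.18, 7.56, 7.88 and 6.66 in replicate 2. The replicate 2 arrays stood above all others, while the control and FOXA2+HIF-1a replicate 1 hypoxia arrays were level with the upper normoxia arrays. Its change was 0.99 ± 0.33 (adjusted p = 0.0429), 0.41 with the replicate block (adjusted p = 0.0727), and replicate 2 exceeded replicate 1 by 1.15 (adjusted p = 0.00214). The call was lost when any one of 8 arrays was left out, each normoxia and each replicate 2 hypoxia array (adjusted p from 0.059 to 0.147). It was also lost with a background offset of 50, in the authors' processed table and with the mean of the detected probes. The other Trp53inp1 probe changed by 0.76, and by 0.15 with the block. Neither was called in the test of every detected probe (adjusted p = 0.147 and 0.634).

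Phlda3 was at 7.36, 7.38, 7.44 and 7.04 in normoxia, at 7.53, 7.58, 7.73 and 8.62 in replicate 1 hypoxia and at 8.17, 8.07, 8.12 and 8.18 in replicate 2. The groups did not overlap, and the highest array was FOXA2+HIF-1a replicate 1, the array with the highest mean intensity. The change was 0.69 ± 0.19 (adjusted p = 0.0176) and its other probe rose by 0.58. It was 0.56 with the replicate block (adjusted p = 0.053) and 0.22 on slide 1 alone (adjusted p = 0.172), which does not hold the FOXA2+HIF-1a arrays, and it was not called without the FOXA2+HIF-1a normoxia array (0.47; adjusted p = 0.0986).

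The other 5 measured targets were not called. Sesn1, which encodes a sestrin that restrains growth signalling, and Gadd45a, a stress gene of arrest and repair, differed between the hypoxia replicates. Sesn1 was at 7.90, 8.17, 7.99 and 7.88 in normoxia, at 8.28, 8.03, 8.16 and 7.85 in replicate 1 hypoxia and at 8.74, 8.70, 8.76 and 9.69 in replicate 2. Gadd45a was at 10.08, 10.02, 10.12 and 10.21 in normoxia, at 10.11, 9.99, 10.54 and 10.14 in replicate 1 hypoxia and at 10.90, 10.51, 10.70 and 10.62 in replicate 2. In Sesn1 all replicate 2 arrays were above all other arrays, and in Gadd45a they were above all but the HIF-1a replicate 1 array. Over both replicates Sesn1 changed by 0.54 ± 0.29 (adjusted p = 0.189; 0.0495 without the FOXA2+HIF-1a replicate 1 hypoxia array) and Gadd45a by 0.33 ± 0.16 (adjusted p = 0.149). Plk3, another polo-like kinase, changed by -0.37 (adjusted p = 0.096; 0.0399 and 0.0445 without the HIF-1a replicate 1 or FOXA2+HIF-1a replicate 2 hypoxia array), Gadd45b by -0.16 and Ccng1, which encodes cyclin G1, by 0.13. Plk3 did not overlap between oxygen levels, with 7.95 to 8.05 in normoxia and 7.04 to 7.93 in hypoxia.

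**Figure D2:**
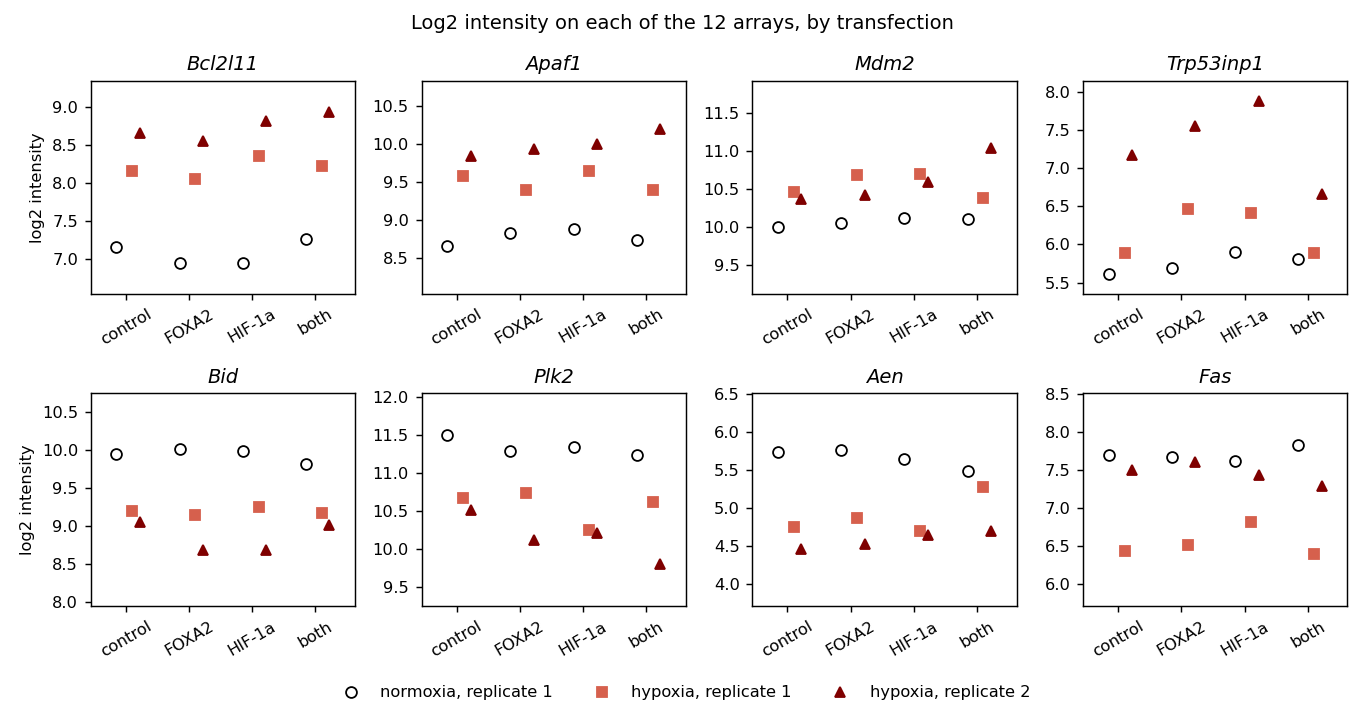
Log2 intensity of 8 members on each of the 12 arrays, by transfection (both, FOXA2+HIF-1a), with open circles for normoxia, squares for hypoxia replicate 1 and triangles for hypoxia replicate 2. All panels span the same log2 range: hypoxia arrays lie above normoxia for Bcl2l11, Apaf1 and Mdm2 and below it for Bid, Plk2 and Aen, while Trp53inp1 and Fas separate the hypoxia replicates.

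Among the 4 genes of the death receptor arm, all measured, Bid fell and the other 3 were not called without the block; with it, Fas and Tnfrsf10b fell too. Bid, whose product is cut by caspase-8 and carries the death signal to mitochondria, was at 9.95, 10.01, 9.99 and 9.81 in normoxia. It was at 9.20, 9.15, 9.25 and 9.17 in replicate 1 hypoxia and at 9.06, 8.68, 8.69 and 9.01 in replicate 2. The groups were well apart, and the change was -0.91 ± 0.13 (1.88-fold lower; adjusted p = 0.000579).

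Fas, the death receptor, was at 7.69, 7.67, 7.61 and 7.82 in normoxia, at 6.43, 6.51, 6.81 and 6.39 in replicate 1 hypoxia and at 7.49, 7.60, 7.43 and 7.29 in replicate 2. On the brightest Fas probe all hypoxia arrays were below all normoxia arrays, narrowly so in replicate 2. There the mean difference from normoxia was -0.25, against -1.16 in replicate 1. The change over both was -0.71 ± 0.26 (adjusted p = 0.0625) and with the replicate block -1.16 ± 0.12 (adjusted p = 2.84e-05), and the replicates differed by 0.92 (adjusted p = 0.00329). Without the control or the FOXA2 replicate 2 hypoxia array Fas was called (adjusted p = 0.0378 and 0.0303).

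Tnfrsf10b, the mouse TRAIL receptor, depended on the probe. Its brightest probe was at 8.41, 8.43, 8.29 and 8.32 in normoxia, at 8.01, 7.95, 8.18 and 7.86 in replicate 1 hypoxia and at 8.12, 8.29, 8.11 and 8.35 in replicate 2, so that the groups overlapped through replicate 2. This probe changed by -0.25 ± 0.11 (adjusted p = 0.111; 0.0235 with the replicate block; 0.0358 without the FOXA2+HIF-1a replicate 2 hypoxia array). Its 3 other probes changed by -1.03, -0.71 and -0.68, all called lower in the test of every detected probe. The probe at -1.03 was detected on all 12 arrays. All 4 normoxia arrays detected the probes at -0.71 and -0.68, but only 6 and 2 of 8 hypoxia arrays did. The sizes of -0.71 and -0.68 therefore rest in part on hypoxia signals not above background. Casp8, which encodes the caspase that the receptors activate, changed by 0.00 ± 0.16.

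Of the 3 measured BH3-only genes, 2 rose and Bad, with a change of 0.17 ± 0.10, was not called. Bcl2l11, which encodes BIM, had the highest rise of the 31 members. It was at 7.16, 6.95, 6.95 and 7.26 in normoxia, at 8.16, 8.05, 8.35 and 8.23 in replicate 1 hypoxia and at 8.66, 8.56, 8.82 and 8.94 in replicate 2. The 3 sets of arrays followed each other with no overlap, normoxia lowest and replicate 2 highest. The change was 1.39 ± 0.17 (2.63-fold; adjusted p = 0.00018), 1.12 with the replicate block, and 1.00 on its other detected probe.

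Bbc3, which encodes PUMA, a BH3-only protein best known as a p53 target, rose less. It was at 7.15, 7.50, 7.36 and 7.13 in normoxia, at 7.64, 7.90, 7.58 and 7.30 in replicate 1 hypoxia and at 8.02, 8.24, 8.31 and 7.70 in replicate 2. In each transfection both hypoxia arrays were above the normoxia array, but the ranges overlapped through the FOXA2+HIF-1a replicate 1 array. The change was 0.55 ± 0.15 (1.47-fold; adjusted p = 0.0179), and it was not called without the control, FOXA2 or HIF-1a normoxia array (adjusted p from 0.0642 to 0.0753). It was 0.32 with the replicate block (adjusted p = 0.0316) and 0.37 on slide 1 alone, which was not called (adjusted p = 0.0521).

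None of the 3 guardians was called, nor was Bak1, the only pore former measured. Mcl1 changed by 0.16 ± 0.10, Bcl2 by -0.28 ± 0.14 and Bak1 by -0.03 ± 0.12. Of 5 detected Bcl2 probes 1 was called, with a change of -0.48 (adjusted p = 0.00501), and the brightest was called lower in the fit blocked by slide (-0.42; adjusted p = 0.0294). Bcl2l1, which encodes BCL-XL, was dim, detected on 3 of 4 normoxia and 4 of 8 hypoxia arrays. Its values were 5.32, 5.21, 5.08 and 5.29 in normoxia, 5.60, 5.58, 5.42 and 7.67 in replicate 1 hypoxia and 4.94, 4.91, 4.63 and 4.94 in replicate 2. One array, FOXA2+HIF-1a replicate 1, stood far above the others, and the change was 0.23 ± 0.42 with it and -0.09 without it. Replicate 2 minus replicate 1 was -1.21 (adjusted p = 0.0386).

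Downstream of the mitochondria, Apaf1 and Casp9 rose, Cycs fell and Xiap, Birc2 and Diablo were not called. Apaf1, the scaffold of the apoptosome, was at 8.66, 8.84, 8.88 and 8.74 in normoxia, at 9.58, 9.40, 9.64 and 9.39 in replicate 1 hypoxia and at 9.85, 9.93, 10.004 and 10.20 in replicate 2. As for Bcl2l11, the 3 sets did not overlap on the brightest probe. On the dimmest Apaf1 probe the hypoxia replicates overlapped, with replicate 1 up to 7.51 and replicate 2 from 7.48, both above normoxia. The change was 0.97 ± 0.16 (1.96-fold; adjusted p = 0.0013), and its 3 probes rose by 0.91 to 0.99.

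Casp9, the initiator caspase that APAF1 activates, was at 8.73, 8.67, 8.70 and 8.74 in normoxia, at 9.05, 9.08, 9.05 and 8.67 in replicate 1 hypoxia and at 9.38, 9.51, 9.56 and 9.06 in replicate 2. Cycs, cytochrome c, was at 12.47, 12.40, 12.48 and 12.32 in normoxia, at 12.26, 12.28, 12.33 and 11.95 in replicate 1 hypoxia and at 11.93, 11.67, 11.54 and 11.60 in replicate 2. In both genes replicate 2 was farther from normoxia than replicate 1, and replicate 1 overlapped normoxia, for Casp9 through the FOXA2+HIF-1a array and for Cycs through the HIF-1a array. Casp9 changed by 0.46 ± 0.15 (adjusted p = 0.0336) and by 0.26 with the replicate block (adjusted p = 0.0974). Cycs changed by -0.47 ± 0.16 (adjusted p = 0.0494), by -0.21 with the block (adjusted p = 0.14) and by -0.16 on slide 1 alone (adjusted p = 0.297). Its 3 probes changed by -0.47, -0.47 and -0.19, and none was called in the test of every detected probe (adjusted p = 0.0548, 0.101 and 0.552). Casp9 was not called when any one of 7 arrays was left out, the control, FOXA2 or HIF-1a normoxia array or a replicate 2 hypoxia array (adjusted p from 0.0532 to 0.133). Cycs was not called when any one of 8 was left out, each normoxia and each replicate 2 hypoxia array (0.0675 to 0.149). Xiap and Birc2, caspase and cell death inhibitors, changed by 0.13 ± 0.12 and -0.04 ± 0.11, and Diablo, which antagonizes them, by -0.13 ± 0.11.

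The calls that held under all 14 other settings and with each of the 12 arrays left out were those of 6 members: Bcl2l11 and Apaf1 higher, and Plk2, Bid, Aen and Tigar lower. For Aen and Tigar, detected on 1 of 8 hypoxia arrays, the call held but the size did not, as given above. The call of Mdm2 was lost in 1 of these settings, a fit with a mean per group (adjusted p = 0.0547). The arrays lay on 2 slides, with the FOXA2+HIF-1a arrays and all replicate 2 arrays on the second, which holds 1 normoxia array. With the slide as a block 6 members were called higher and 8 lower, beside 13.3% and 15% of all genes. On slide 1 alone, 3 arrays against 3, 5 were called higher and 6 lower, beside 11.4% and 10.6%. On slide 1 Bcl2l11 changed by 1.17, Apaf1 by 0.75, Mdm2 by 0.55, Plk2 by -0.83, Bid by -0.79, Aen by -0.94 and Tigar by -0.72, all called. Within slide 2, the FOXA2+HIF-1a arrays gave 1.32 for Bcl2l11, 1.06 for Apaf1, 0.61 for Mdm2, -1.02 for Plk2, -0.72 for Bid, -0.50 for Aen and -0.63 for Tigar, from 2 hypoxia arrays and 1 normoxia array.

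Over the probes, 12 of the 59 detected were called higher and 11 lower, beside 12.4% and 14.1% of all 17436 detected probes. Of 17 members with more than 1 detected probe, 15 had all probes on 1 side of 0, Birc2 and Ccng1 had probes on both sides, and 0 had probes called in opposite directions. The other 14 rest on a single detected probe, among them Plk2, Bid, Aen, Tigar, Bbc3 and Casp9.

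**Figure D3:**
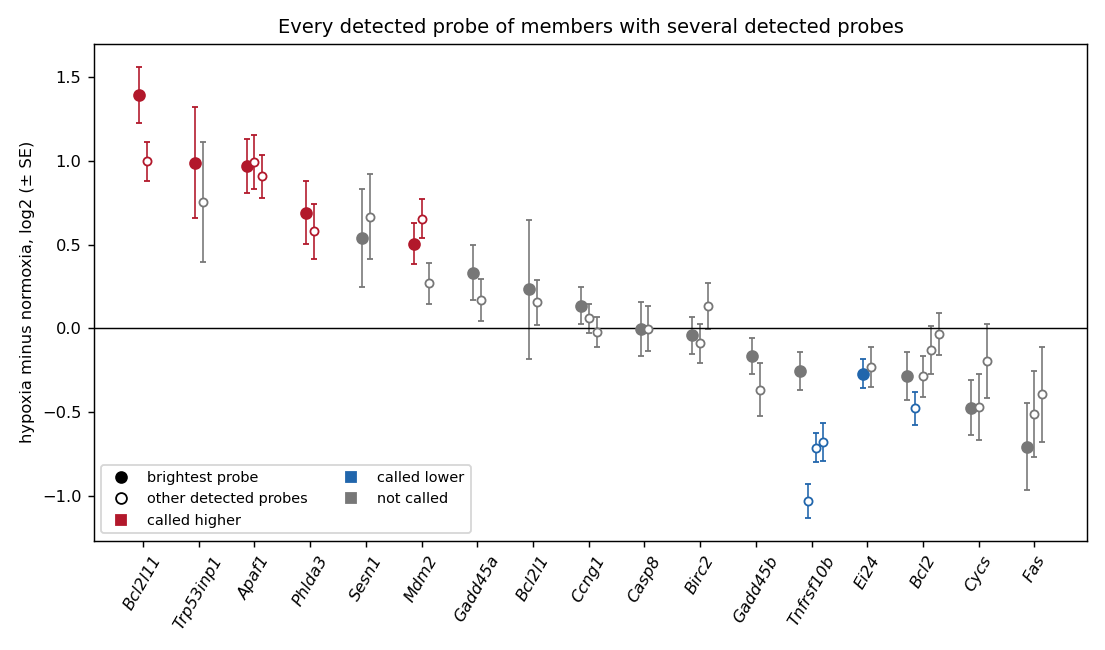
Hypoxia minus normoxia in log2 intensity (± SE) for every detected probe of the 17 members with more than 1, ordered by the change of the brightest probe (filled). The 3 Apaf1 probes lie together at 0.91 to 0.99, whereas the Tnfrsf10b probes run from -1.03 to -0.25.

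The hypoxia replicates were compared directly in a fit of the 8 hypoxia arrays with transfection as a term. Replicate 2 was higher than replicate 1 for 8 members (Trp53inp1, Fas, Sesn1, Bcl2l11, Apaf1, Gadd45a, Bbc3 and Casp9) and lower for 4 (Tigar, Bcl2l1, Cycs and Rrm2b), beside the 8.44% and 8.01% of all genes given above. The sizes were 0.55 for Bcl2l11 (adjusted p = 0.0137), 0.49 for Apaf1 (0.0334), 0.46 for Bbc3 (0.0323), 0.41 for Casp9 (0.033), -0.52 for Cycs (0.0252) and -0.44 for Rrm2b (0.0416). In the test of every detected probe, the other probes of Trp53inp1, Fas, Sesn1 and Cycs and the second of Apaf1 were also called. The other probes of Bcl2l11 (0.19, adjusted p = 0.395), Gadd45a (0.35, 0.0778) and Bcl2l1 (-0.27, 0.182) and the dimmest of Apaf1 (0.35, 0.0642) were not. Mdm2, Plk2, Bid, Aen and Zmat3 were not called in this comparison, with 0.04, -0.41, -0.33, -0.31 and -0.09. The counts changed when 1 transfection was left out. Without the control, FOXA2 or HIF-1a arrays 3, 2 and 4 members were higher and 1, 0 and 1 lower. Without the FOXA2+HIF-1a arrays 9 were higher and 3 lower. These fits hold fewer arrays, and the share of all genes called in them was not counted. What set the replicates apart was not tested.

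**Figure D4:**
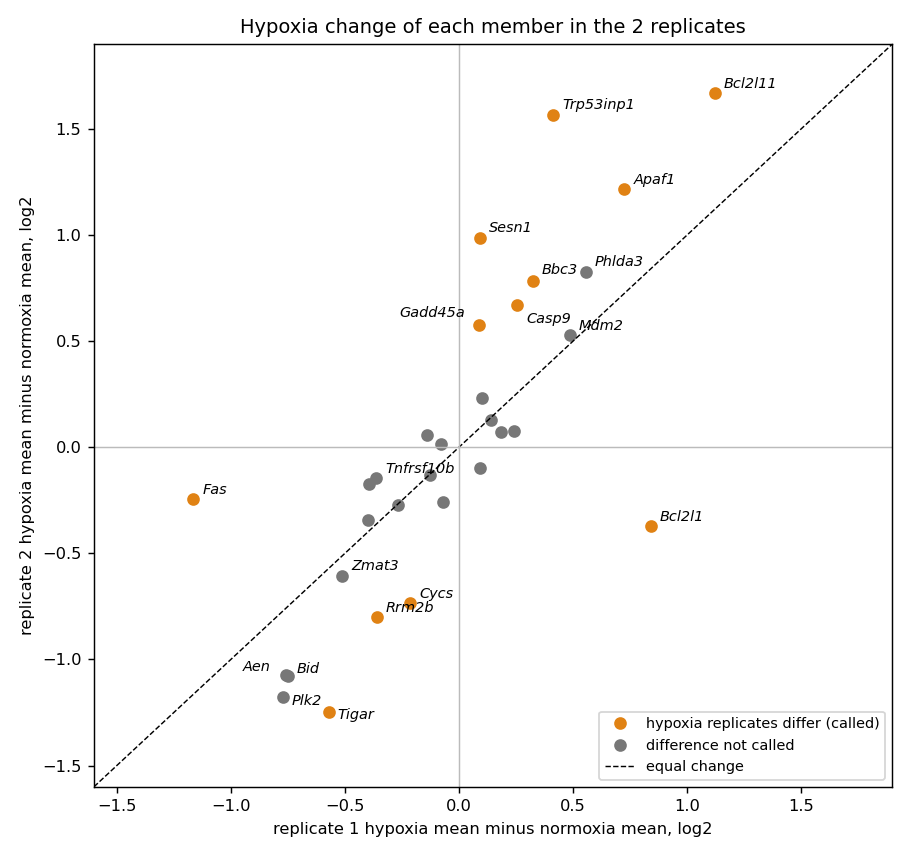
Mean of the 4 replicate 1 hypoxia arrays (x axis) and of the 4 replicate 2 hypoxia arrays (y axis), each minus the mean of the 4 normoxia arrays, in log2, for the 31 members; the normoxia mean is shared. Orange marks the 12 members whose hypoxia replicates differed, and Trp53inp1 at 0.41 and 1.57 and Bcl2l1 at 0.84 and -0.37 lie farthest from the line of equal change on its 2 sides.

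Whether FOXA2 or HIF-1a changed the members was asked in hypoxia, with 2 arrays a group in a fit with a mean per group. No member was called for FOXA2, HIF-1a or FOXA2+HIF-1a against control, nor for the interaction of the factors, where 0% of all genes were called. At an unadjusted p under 0.05 the members also numbered 0, beside 21, 82, 432 and 243 of all 9609 genes. The median size of the members' differences was log2 0.08 for FOXA2, 0.16 for HIF-1a and 0.26 for both, beside 0.08, 0.14 and 0.18 for all genes, with a median SE of 0.27 for the members. The member with the smallest p in a comparison with control was Bcl2 with both factors, at -0.54 ± 0.25 (adjusted p = 0.966). With the replicate block the median SE was 0.18, no member was called, and 0%, 0%, 0.0312% and 0% of all genes were. Members with an unadjusted p under 0.05 then numbered 1, 1, 2 and 4, beside 83, 360, 1099 and 720 of all genes. They were Trp53inp1 for FOXA2 (0.48) and for HIF-1a (0.61), Bcl2 (-0.54) and Casp9 (-0.36) for both factors, and Trp53inp1, Rrm2b, Bbc3 and Casp9 for the interaction. The lowest of these p-values was 0.00109, for the Trp53inp1 interaction of -1.35 ± 0.27 (adjusted p = 0.65). In normoxia, with 1 array a group and no test, a member's 4 arrays spanned a median of log2 0.22 and at most 0.48 (Tigar), beside a median of 0.23 for all genes.

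The response to hypoxia was also taken within each transfection, 2 arrays against 1, which takes the spread of the single normoxia array to equal that of the hypoxia pairs. Over the genes tested, normoxia arrays of different transfections correlated at 0.996 to 0.997, and hypoxia replicates of 1 transfection at only 0.967 to 0.986. Without the block, the spread in these tests therefore includes the difference between hypoxia replicates and may be too wide for a normoxia array. No member was called in control, FOXA2, HIF-1a or FOXA2+HIF-1a cells, beside 0.656%, 0.687%, 0.76% and 0.614% of all genes, and 5, 3, 6 and 6 members had an unadjusted p under 0.05. Those are 16.1%, 9.68%, 19.4% and 19.4% of the members, beside 9.24%, 9.46%, 12.4% and 13.2% of all genes, so that in FOXA2 cells the share was near that of all genes. Bcl2l11 changed by 1.26, 1.36, 1.64 and 1.32 in these 4 transfections, Apaf1 by 1.05, 0.83, 0.95 and 1.06, and Bid by -0.83, -1.10, -1.01 and -0.72. With the replicate block, Bcl2l11 was called higher in all 4 (adjusted p from 0.00977 to 0.0448), and Fas lower in FOXA2+HIF-1a cells (0.0156), control cells (0.0357) and FOXA2 cells (0.0482) but not in HIF-1a cells (0.0614); 2.24% of all genes were called in control, 2.47% in FOXA2, 3.34% in HIF-1a and 2.73% in FOXA2+HIF-1a cells. The difference of the response from that of control cells was tested for each factor and for both, and 0 members and 0% of all genes were called. In those 3 tests 0 members had an unadjusted p under 0.05, beside 0.114%, 0.323% and 0.739% of all genes. At such shares a count of 0 among 31 members does not set them apart. The median SE of a difference was 0.47 for the members. On the brightest probe, both hypoxia arrays were above the normoxia array in all 4 transfections for 6 members (Mdm2, Trp53inp1, Phlda3, Bbc3, Bcl2l11 and Apaf1). They were below it in all 4 for 10 (Plk2, Plk3, Zmat3, Ei24, Rrm2b, Tigar, Aen, Fas, Bid and Cycs). Those are 6 and 10 of 31, beside 15.6% of all genes above and 18.1% below. Other detected probes of Mdm2, Trp53inp1, Ei24, Fas and Cycs did not show this in every transfection.

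Other genes of the same pathways were read from lists by the same test, and their counts are set beside the same background of 14.4% and 15.9%. Of 21 other p53 targets 18 were measured, 4 rose and 1 fell, with a median change of log2 0.18. Cdkn1a, the cyclin-dependent kinase inhibitor p21, ran from 6.44 to 6.91 in normoxia and from 11.33 to 11.90 in hypoxia and rose by 4.83 ± 0.10 (adjusted p = 2.77e-10). Sesn2, a sestrin, was called higher (0.80), but its probe was detected on 1 of 4 normoxia and 7 of 8 hypoxia arrays, and the size rests on normoxia signals that were mostly not above background. Polk, a repair polymerase, rose by 0.49, and Triap1, a p53-induced inhibitor of apoptosis, changed by -0.38, which was called lower. Sesn2 and Polk were not called with the replicate block (adjusted p = 0.0571 and 0.108), with which this list held 1 rise, that of Cdkn1a, and 1 fall.

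Of 26 other apoptosis genes 18 were measured, 6 rose and 1 fell, with or without the block, and the median change was log2 -0.01. Bnip3l and Bnip3 encode mitochondrial proteins of the BCL2 family that act in mitophagy and are known targets of hypoxia-inducible factor. Bnip3l rose by 2.10 ± 0.09 (adjusted p = 4.03e-08). Bnip3 was not detected on any normoxia array and was at least 1.79-fold higher in hypoxia (adjusted p = 8.08e-07), the bound being taken against the lowest signal of detected probes. Its probe passed the detection filter only through hypoxia, where it is high, and the adjusted p rests on normoxia signals not above background. Casp6, an executioner caspase, rose by 1.53 ± 0.17, and Htra2, a mitochondrial protease that antagonizes caspase inhibitors, fell, with a change of -0.96 ± 0.12. Of 14 genes whose products modify p53 or its partners 13 were measured, 3 rose and 1 fell, with a median change of 0.12. Ppp1r13b, a p53-binding protein, rose by 0.33, Kat5, an acetyltransferase, by 0.58 and Chek2, a checkpoint kinase, by 0.27, and Chek1, the other checkpoint kinase, changed by -0.54, a fall. With the replicate block Kat5 and Chek1 were not called (adjusted p = 0.0763 and 0.059).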

How the data were processed

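The authors deposited linear, unnormalized intensity values of 45281 probes on 12 Illumina Mouse-6 arrays, with a detection p-value beside each; the deposited processed intensity table, of 26415 probes, was used only as an alternative. Its background correction and normalization, and the software behind both tables, are not given in the sources used here. Per the labels, 500 ng of total RNA was amplified and stained with Cy3. Groups and replicate numbers came from the sample labels, and 0 columns of values were unused.

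Intensities were background-corrected with the detection p-values (limma 3.58.1, R 4.3.3, offset 16), quantile normalized and put on a log2 scale. A probe was kept where detection p was below 0.01 for 2 or more arrays (17436; 14981 with 1 gene symbol, 5 with several, 2450 with none here), and each of 9609 genes was represented by its brightest detected probe. Levels of different probes are not comparable. Tests used lmFit and eBayes, checked on simulated data, with Benjamini-Hochberg adjustment over all genes (or all detected probes) and a threshold of 0.05. The number of arrays limits the precision.

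Deviations of same-numbered hypoxia arrays from their group means correlated in all 6 pairs of transfections (0.286 to 0.782), so the replicate numbers pair the arrays and the blocked fit was run throughout. Other alternatives were the slide, single replicates, a mean per group, background, scaling, detection and probe rules, the processed table and leaving out each array. The members and lists were chosen with earlier results of these data known. By rule, per-array values were given for Mdm2, the 14 other members with the smallest p and any called in another comparison, and from each other list Cdkn1a and up to 4 genes of smallest p. Promoter sequences are from RefSeq (GRCm38.p6), and 31 of the 37 members matched by symbol.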

Additional observations from a re-analysis of the deposited data

Results flagged for a closer look

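Of 62 sets of values examined, the 31 members in 4 normoxia and in 8 hypoxia arrays, 1 had an array far from the rest, and chance alone marks about 1 in 20 such sets. Bcl2l1, which encodes BCL-XL, was at log2 7.67 on the FOXA2+HIF-1a hypoxia replicate 1 array. The next highest hypoxia array was at 5.60 and the lowest at 4.63, so that the gap made up 0.68 of the whole range. The second Bcl2l1 probe was at 5.63 on the same array, its highest of 12. This array had the highest mean intensity, 558.5, and the most detected probes, 17182, and their part in the value was not tested.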

How the results depend on the processing

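With the replicate block, which reads oxygen from replicate 1 arrays alone, 4 members were called higher in place of 7. Within each transfection the block gave 1 member higher in place of 0, and 1 lower except in HIF-1a cells; it changed no member's call in the comparisons between transfections. With a mean per group, which leaves fewer degrees of freedom, 3 members were called higher and 4 lower, and all genes gave 845 and 783 in place of 1386 and 1532. Replicate 2 hypoxia arrays alone gave 2465 and 2617 for all genes. Leaving out 1 array gave 4 to 8 members higher and 5 to 9 lower. Leaving out 1 transfection gave 2 to 9 higher and 0 to 3 lower between hypoxia replicates. All genes were not counted in either case. Small changes turned sign. Casp8 went from 0.00 to 0.09 with the block and with replicate 1 alone, 0.01 with median scaling, and 0.00 with an offset of 50 and in the authors' processed table. Bak1 was 0.01, Birc2 0.06 and Bcl2l1 -0.37 (adjusted p = 0.00571) with replicate 2 alone, Birc2 was 0.00 as a mean of its probes and Diablo 0.02 on slide 1 alone. Without 1 array Casp8 ran from -0.09 to 0.09, Bak1 and Birc2 from -0.09 to 0.02 and Bcl2l1 from -0.09 to 0.46. The cause was not tested. For single members, the other settings left 376 results on the same side, took 34 below the threshold, brought 14 past it and reversed 10.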
